A study of Homo sapiens with 6 samples.

Results

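The anaphase-promoting complex (APC/C) is the ubiquitin ligase of mitosis, and 10 of its genes were followed here among the 58735 genes of an RNA-seq table. The genes were taken by name: the coactivators CDC20 and FZR1, the inhibitor FBXO5, the E2 enzyme UBE2C, and the core subunits ANAPC1, ANAPC4, ANAPC5, CDC16, CDC23 and CDC27. The cells were PC9-BrM3, which derive from the human lung adenocarcinoma line PC9 and spread readily to the brain. They were obtained by 3 rounds of injection into the left heart ventricle of immunodeficient mice and re-isolation. In BrM3-shAKR1B10 (3 libraries), AKR1B10 was silenced with 1 shRNA vector, whereas BrM3-shNC (3 libraries, labelled as wild type in genotype) carried a negative control shRNA, and both groups therefore went through lentiviral shRNA delivery. A single AKR1B10 shRNA in a single derivative line was sequenced, and the labels do not say whether the replicates were separate cultures (the methods speak of independent experiments for quantitative data in general, not for RNA-seq by name), so p-values measure only the spread between these libraries, which may be technical. The comparison addresses which transcripts of the complex differed after AKR1B10, an aldo-keto reductase, was silenced.

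APC/C marks cyclin B and securin for destruction, which lets sister chromatids part and lets the cell leave mitosis. CDC20 directs the complex in mitosis, and FZR1 (also called CDH1) takes over from late mitosis into G1, whereas FBXO5 (EMI1) holds the complex inactive through S phase. UBE2C places the first ubiquitins on a substrate and UBE2S lengthens the chain, on a scaffold of large platform subunits and of tetratricopeptide repeat (TPR) subunits that bind the coactivators.

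After silencing, some transcripts of the complex fell and others were not called. The mitotic coactivator CDC20 and the E2 enzyme UBE2C fell to 44.2% and 46.3% of control, the inhibitor FBXO5 and the TPR subunits CDC27 and CDC23 fell to between 55.2% and 66.8% of control, and the other 5 genes were not called. Here a gene was called when limma gave an adjusted p below 0.05 and the log2 fold change, on log2(FPKM + 0.1), was beyond 0.5 in size. FPKM is a read count scaled to gene length and to library size. By that rule 5 of the 10 genes were lower and 0 were higher, beside 7.45% of all 13150 genes tested called lower and 5.83% called higher. By adjusted p alone, at any fold, 7 of the 10 were lower (23.1% of all genes), and in 7 of the 10 each silenced library lay below each control library (29.2% of all genes). All 10 genes passed the filter of a mean of at least 1 FPKM, and the median log2 fold change was -0.44 over the 10 and -0.01 over all genes. In bulk RNA such as this, fewer cells in a phase of the cell cycle and less RNA per cell cannot be told apart.

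Sequences upstream of the start sites are shown for 4 genes that fell (CDC20, FBXO5, CDC27, CDC23). For contrast, they are also shown for the other coactivator and the other TPR subunit among the 10, which were not called (FZR1, CDC16). They are shown because many mitotic genes are known to carry a CCAAT box and a cell cycle homology region (CHR) next to their start. Windows of 250 bases before to 50 after a start came from a table of RefSeq sequences (GRCh38.p14), in which 9 of the 10 genes, all but UBE2C, were matched to 11 windows. Capitals mark the CHR core TTTGAA or the CCAAT box on either strand, so the opposite strand reads TTCAAA or ATTGG, and each stretch, written 5′ to 3′ on the gene's strand, stops before the first annotated exon of GENCODE 29 or at the RefSeq start.
CDC20, chr1:43358731-43358954, plus strand: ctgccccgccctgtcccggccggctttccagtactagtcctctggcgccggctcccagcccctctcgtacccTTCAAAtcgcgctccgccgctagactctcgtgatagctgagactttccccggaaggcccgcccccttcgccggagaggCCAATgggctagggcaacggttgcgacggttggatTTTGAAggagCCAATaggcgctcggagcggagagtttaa
FBXO5, inner start, chr6:152983042-152983233, minus strand: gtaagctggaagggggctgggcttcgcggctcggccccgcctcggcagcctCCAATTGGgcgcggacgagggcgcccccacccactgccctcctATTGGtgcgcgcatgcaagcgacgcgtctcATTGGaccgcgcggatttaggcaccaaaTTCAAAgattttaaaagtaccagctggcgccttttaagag
CDC27, chr17:47189423-47189545, minus strand: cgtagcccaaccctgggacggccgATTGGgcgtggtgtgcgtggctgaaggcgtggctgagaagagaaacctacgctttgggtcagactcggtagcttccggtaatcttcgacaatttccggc
CDC23, chr5:138213344-138213573, minus strand: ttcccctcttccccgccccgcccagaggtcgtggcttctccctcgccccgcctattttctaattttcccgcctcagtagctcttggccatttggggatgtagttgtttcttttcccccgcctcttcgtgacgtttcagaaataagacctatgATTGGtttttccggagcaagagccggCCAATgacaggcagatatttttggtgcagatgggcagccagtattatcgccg
FZR1, outer start, chr19:3506061-3506272, plus strand: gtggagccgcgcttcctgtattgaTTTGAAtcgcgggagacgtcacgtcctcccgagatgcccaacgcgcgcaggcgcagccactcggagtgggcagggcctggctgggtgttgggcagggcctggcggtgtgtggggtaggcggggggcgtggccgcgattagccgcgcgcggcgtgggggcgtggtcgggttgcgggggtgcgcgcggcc
CDC16, chr13:114234647-114234886, plus strand: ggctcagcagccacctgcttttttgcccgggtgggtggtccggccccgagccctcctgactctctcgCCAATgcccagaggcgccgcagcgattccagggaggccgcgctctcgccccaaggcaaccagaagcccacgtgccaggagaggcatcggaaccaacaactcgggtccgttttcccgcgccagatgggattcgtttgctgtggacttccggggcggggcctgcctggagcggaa
The CDC20 window held TTTGAA beginning 65 bases before the start, with CCAAT boxes at 100 and 55 bases before it, and a second CHR core on the opposite strand at 178 bases. The FBXO5 stretch lay in the first intron and held TTTGAA on the opposite strand at 40 bases before the inner start and 4 CCAAT matches, of which the pair at 141 and 138 bases overlapped on opposite strands. The window of the outer FBXO5 start held neither motif, nor did that of the inner FZR1 start. CDC27 and CDC16 each held 1 CCAAT match, at 226 and 183 bases, and FZR1 held TTTGAA at 226 bases. CDC23 held 3 CCAAT matches, at 98, 72 and 17 bases, the last beyond the stretch shown. Of the windows not shown, that of ANAPC5 held 1 CCAAT match at 76 bases before the start, that of ANAPC1 held TTTGAA at 37 bases after it, and that of ANAPC4 held neither motif. Over all 35116 windows, 15.2% held TTTGAA, 34.6% held CCAAT and 5.90% held both, and among the 11 windows of the complex these were 4, 6 and 2. The 2 windows with both motifs belonged to CDC20 and FBXO5. A match is only a run of letters in the window and does not show that a factor binds there.

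AKR1B10 itself was read first as a check of the labels. Its FPKM was 108, 107 and 110.2 in the silenced libraries against 799, 775 and 772 in the controls, so silencing left 13.9% of the control level (log2 fold change -2.85). The libraries held 16964504 to 18709028 reads on genes, which gave each of the 10 APC/C genes at least 386 reads in its lowest library. Counting error alone was 2.42% to 5.09% of a gene's level in its lowest library, and for FBXO5, ANAPC5 and CDC23 the SD in both groups was smaller than the counting error in that library. Epithelial markers were above 0 in all libraries for 6 of 6 genes (44.8 to 974 FPKM), and 0 were called. Of 14 markers of fibroblasts, endothelium, leukocytes, glia and neurons, 3 were at 0 in all 6 libraries (COL1A2, DCN and LUM), no value passed 3.47 FPKM, and the list summed to 6.10 to 6.27 FPKM in silenced and 7.16 to 7.56 FPKM in control libraries. Only 3 of the 14 passed the filter, of which COL1A1 was lower (-0.67) and CDH5 higher (0.65).

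**Figure D1:**
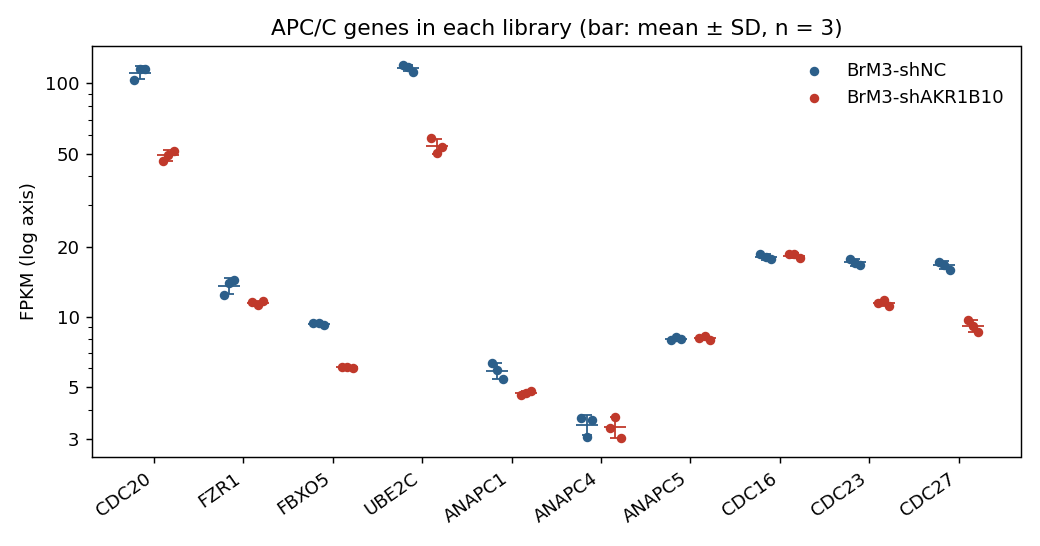
FPKM on a log axis of the 10 APC/C genes in the 3 BrM3-shNC (blue) and 3 BrM3-shAKR1B10 (red) libraries, each point being 1 library and each bar the mean ± SD. The silenced points of CDC20, UBE2C, FBXO5, CDC23 and CDC27 lie well below the control points, those of FZR1 and ANAPC1 lie below them by a small margin, and those of ANAPC4, ANAPC5 and CDC16 overlap them.

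Of the coactivators, CDC20 fell and FZR1 was not called. CDC20 had 46.6, 49.5 and 51.5 FPKM in the silenced libraries and 103, 115 and 115 FPKM in the controls, and the groups lay far from each other. Its mean fell from 111 ± 7.06 to 49.2 ± 2.48 FPKM (SD over 3 libraries each). The log2 fold change was -1.18 (SE 0.06, limma adjusted p = 2.9e-05), with a 95% interval from -1.32 to -1.04. FZR1, which replaces CDC20 as the cell leaves mitosis, had 11.5, 11.2 and 11.7 FPKM after silencing and 12.3, 14.0 and 14.4 FPKM in control. The FZR1 groups did not overlap, but its lowest control library came close to the silenced ones. Its log2 fold change of -0.24 (95% interval -0.39 to -0.09, limma adjusted p = 0.023) was under the fold threshold, so FZR1 was not called. The adjusted p of FZR1 was also above 0.05, at 0.0513 to 0.0696, when any 1 library other than BrM3-shNC replicate 1 was left out.

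The level of CDC20 was also set against that of FZR1 within each library. The FPKM ratio of CDC20 to FZR1 was between 7.997 and 8.37 in the control libraries and between 4.04 and 4.42 in the silenced libraries. The log2 ratio differed by -0.94 (exact two-sided permutation test, p = 0.10, which is the smallest p that 3 against 3 allows), and the Benjamini-Hochberg value over 5 such ratios was also 0.10.

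The inhibitor FBXO5 fell too. It had 6.10, 6.07 and 6.02 FPKM in silenced and 9.35, 9.40 and 9.21 FPKM in control libraries. These groups were narrow and well apart, and FBXO5 fell by 0.61 on the log2 scale (SE 0.04, limma adjusted p = 5.5e-05), to 65.0% of control. The SD of FBXO5 was 0.677% and 1.07% of the mean in the silenced and control groups, whereas counting error alone was 3.90% to 4.95% at its 409 to 658 reads per library. Its SE of 0.04 was therefore below the 0.05 that counting error gives on the log2 scale, which was the case for 1 of the 10 genes, and its precision is overstated. An antisense transcript, AL080276.2, shares 249 bases with FBXO5 and had at most 18 reads in a library, or 2.80% of the FBXO5 reads.

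UBE2C and UBE2S, the E2 enzymes that start and extend the chains, both fell. UBE2C had 58.2, 50.2 and 53.5 FPKM after silencing and 119.8, 118 and 112 FPKM in control. The groups lay far apart, and the log2 fold change was -1.11 (SE 0.06, 95% interval -1.25 to -0.97, limma adjusted p = 3.4e-05). UBE2S had 115, 101 and 114 FPKM after silencing against 158, 207 and 211 FPKM in control, and fell by 0.80 on the log2 scale (SE 0.12, limma adjusted p = 0.0022). Its control libraries were more spread than those of UBE2C, with BrM3-shNC replicate 1 lowest. The FPKM ratio of UBE2C to UBE2S was 0.472 to 0.507 in silenced and 0.533 to 0.758 in control libraries, a log2 difference of -0.32 (exact two-sided permutation p = 0.10, the smallest possible; 0.10 over the 5 ratios), which became -0.16 to -0.42 as each library was left out. UBE2D1, an E2 enzyme of many ligases, was not called (log2 fold change -0.20, limma adjusted p = 0.036).

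Among the 6 core subunits, 2 fell, and both were TPR subunits. CDC27, the TPR subunit that receives the coactivator tail, had 9.73, 9.16 and 8.61 FPKM in silenced and 17.2, 16.7 and 15.9 FPKM in control libraries. The groups were far apart and the log2 fold change was -0.85 (SE 0.06, limma adjusted p = 8.5e-05), to 55.2% of control. CDC23, a second TPR subunit, had 11.5, 11.7 and 11.1 FPKM after silencing and 17.7, 17.0 and 16.6 FPKM in control, and fell by 0.58 (SE 0.04, limma adjusted p = 0.00011). Its 95% interval ran from -0.68 to -0.48 and so reached inside the fold threshold. CDC16, the last TPR subunit among the 10, had 18.5, 18.6 and 17.8 FPKM against 18.7, 17.98 and 17.6 FPKM. These values overlapped throughout, with a log2 fold change of 0.02 and a 95% interval from -0.07 to 0.11 (limma adjusted p = 0.76).

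The TPR subunits were compared within each library in the same way. CDC27 had 0.903 to 0.928 of the CDC16 level in control and 0.484 to 0.526 after silencing, a log2 difference of -0.87. The CDC23 to CDC16 ratio was 0.942 to 0.950 in control and 0.620 to 0.632 after silencing, a log2 difference of -0.59. In control these 3 TPR subunits were thus near one FPKM level, and after silencing they took 3 separate levels. ANAPC7, a TPR subunit outside the 10, was lower in level, at a mean of 6.42 FPKM in control and 6.07 FPKM after silencing. It was not called (log2 fold change -0.08, limma adjusted p = 0.32). For both ratios the exact two-sided permutation p was 0.10, the smallest that 3 against 3 can give, and both pairs were chosen after the values were seen.

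A neighbour bears on CDC23. The last 68 bases of CDC23 overlap KIF20A, a mitotic kinesin gene on the opposite strand, and whether reads were counted by strand is not stated. KIF20A had 51.6 FPKM in control and 20.1 FPKM after silencing (log2 fold change -1.36). Over its whole gene, not the 68 shared bases alone, it had up to 266% of the CDC23 reads. The part of KIF20A in the CDC23 value was not tested. FZR1 likewise shares 70 bases with MFSD12 on the opposite strand, which had 7.91 FPKM after silencing and 7.85 FPKM in control. Processed pseudogenes took few reads: UBE2CP2 had at most 6, CDC20P1, CDC27P1 and CDC27P3 at most 1 each, and the unprocessed copy ANAPC1P1 at most 15, or 1.31% of the ANAPC1 reads.

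The platform subunits were not called. ANAPC1, the largest subunit, had 4.62, 4.69 and 4.80 FPKM after silencing and 6.31, 5.91 and 5.41 FPKM in control. Its groups did not overlap, and its log2 fold change of -0.31 (95% interval -0.46 to -0.16, limma adjusted p = 0.0085) was under the fold threshold. ANAPC5, which sits beside ANAPC1 in the platform, had 8.08, 8.24 and 7.95 FPKM against 7.98, 8.20 and 8.02 FPKM, and its log2 fold change of 0.00 had an interval from -0.08 to 0.09 (limma adjusted p = 0.93). ANAPC4, the lowest of the 10 in FPKM, had 3.35, 3.72 and 3.02 FPKM after silencing and 3.67, 3.05 and 3.60 FPKM in control. Its libraries were intermixed, with a log2 fold change of -0.03 and a wider interval, from -0.28 to 0.22 (limma adjusted p = 0.83). For ANAPC4, ANAPC5 and CDC16 the whole interval lay within 0.5 of no difference. The FPKM ratio of ANAPC1 to ANAPC5 was 0.675 to 0.790 in control and 0.570 to 0.604 after silencing, a log2 difference of -0.32 (exact two-sided permutation p = 0.10, the smallest possible), again a pair chosen after the values were seen.

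**Figure D2:**
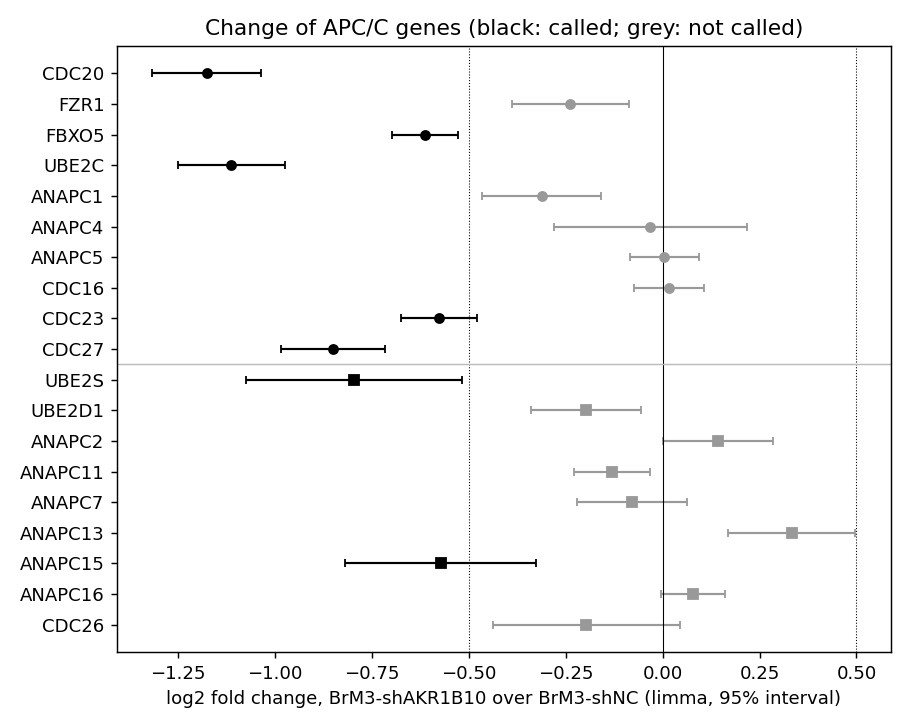
Log2 fold change of BrM3-shAKR1B10 over BrM3-shNC with its 95% interval from limma for the 10 APC/C genes (circles) and for 2 further E2 enzymes and 7 further subunits (squares), called genes in black, dotted lines at the threshold of 0.5 in either direction. CDC20, UBE2C, CDC27, UBE2S, FBXO5, CDC23 and ANAPC15 are called lower, and no gene shown is called higher.

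The order of the levels differed between the groups. This order rests on FPKM, which is scaled to a gene length that ran from 1286 bases (UBE2C) to 13987 bases (ANAPC1). Whether those lengths match the transcripts in these cells was not tested. In control, UBE2C (116.7 FPKM) and CDC20 (111 FPKM) led with overlapping libraries, followed by CDC16, CDC23 and CDC27, whose neighbours overlapped in that order, and then by FZR1, FBXO5, ANAPC5, ANAPC1 and ANAPC4, each above the next in all libraries. After silencing, UBE2C (54.0 FPKM) and CDC20 (49.2 FPKM) still led and overlapped, and CDC16 came next at 18.3 FPKM. FZR1 (11.5 FPKM) and CDC23 (11.4 FPKM) now overlapped, ahead of CDC27 at 9.17 FPKM. FBXO5 (6.06 FPKM) dropped below ANAPC5 (8.09 FPKM), whereas it had stood above ANAPC5 in control.

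Of 8 further subunits, 7 passed the filter (ANAPC10 did not), with a median of -0.08. Of these 7, 1 was lower and 0 were higher, beside 7.45% lower and 5.83% higher of all genes. A list of 7 is too small to set its shares apart from those. The 1 that fell, ANAPC15, helps CDC20 leave the complex that the spindle checkpoint holds inactive. It had 3.75, 4.53 and 4.50 FPKM after silencing and 5.88, 6.11 and 7.17 FPKM in control (log2 fold change -0.57, limma adjusted p = 0.0051), and it was under the fold threshold, at -0.49 in each case, without BrM3-shAKR1B10 replicate 1 or without BrM3-shNC replicate 3. The catalytic pair ANAPC2 (0.14, limma adjusted p = 0.095) and ANAPC11 (-0.13, limma adjusted p = 0.043) was not called. ANAPC13, a small subunit that steadies the TPR proteins, was 24.8, 28.3 and 25.7 FPKM after silencing and 21.6, 19.2 and 21.7 FPKM in control, and with a log2 fold change of 0.33 (limma adjusted p = 0.0089) it was under the threshold too. Over all 14 subunits, 13 were tested, 3 were lower and 0 were higher.

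Of the spindle checkpoint, which restrains CDC20 until chromosomes are attached, most genes tested fell. Of 9 genes of the checkpoint and of further inhibitors, 8 were tested (FBXO43 did not pass the filter), 5 were lower and 0 were higher, with a median of -1.03. Over all genes tested, 7.45% were lower and 5.83% higher. MAD2L1, the checkpoint protein that binds CDC20, had 5.26, 5.03 and 4.60 FPKM after silencing and 11.7, 10.99 and 10.8 FPKM in control (log2 fold change -1.15, limma adjusted p = 3.9e-05). BUB1B, its partner on CDC20 (-1.08), the kinases BUB1 (-1.30) and TTK (-1.02), and TRIP13 (-1.05), the ATPase that takes MAD2L1 out of the checkpoint complex, also fell. BUB3 (-0.32) and MAD1L1 (-0.38) were under the fold threshold, and MAD2L1BP was at -0.06 (limma adjusted p = 0.50).

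Genes that switch the complex on and off were mixed. Of 7 listed, 6 were tested (USP44 did not pass the filter), 4 were lower and 0 were higher, beside 7.45% lower and 5.83% higher of all genes tested. CDK1 (-1.07), its cyclin partner CCNB1 (-1.23) and PLK1 (-1.14) fell. CDK1 and PLK1 are mitotic kinases that phosphorylate the complex and mark FBXO5 for removal. BTRC, the F-box protein that takes FBXO5 to destruction, fell by 0.58 (limma adjusted p = 0.0009) but was under the fold threshold, at -0.48, with a pseudocount of 1, whereas its paralog FBXW11 was at 0.18 (limma adjusted p = 0.022) and the deubiquitinase USP37 at 0.14 (limma adjusted p = 0.21), both not called.

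The known substrates of the complex were lower almost without exception. Of 28 listed substrates, all were tested, 26 were lower and 0 were higher, with a median of -1.05. Among all genes tested, 7.45% were lower and 5.83% higher, with a median of -0.01. The cyclins CCNB1 (-1.23), CCNB2 (-1.11) and CCNA2 (-1.04) fell. CCNB1 had 51.6, 50.5 and 53.2 FPKM after silencing and 119.7, 124 and 120.3 FPKM in control, and these groups did not overlap. PTTG1, the securin that guards cohesion (-1.19), and SGO1 (-1.05) and CDCA5 (-0.66), which protect cohesin on chromosomes, fell too. So did the mitotic kinases AURKA (-1.33), AURKB (-1.11), PLK1 (-1.14) and NEK2 (-1.05). Spindle and cytokinesis factors fell as well, with HMMR at -1.36, DLGAP5 at -1.25, CENPF at -1.22, NUSAP1 at -1.14, ANLN at -1.09, KIF11 at -1.09, TPX2 at -1.08, KIFC1 at -1.05, CKAP2 at -0.88 and KIF22 at -0.72. CDCA3 (-0.93), SKP2 (-0.88) and FOXM1 (-0.84), a ubiquitin ligase trigger, a ubiquitin ligase subunit and a transcription factor of mitotic genes, were also lower. Among substrates that act in S phase, RRM2 (-0.88) and TK1 (-0.69) of nucleotide synthesis and the licensing inhibitor GMNN (-0.54, and -0.49 and not called with quantile normalization) fell, while the licensing factor CDC6 (-0.17, limma adjusted p = 0.065) and the phosphatase CDC25A (-0.11, limma adjusted p = 0.21) were not called. These are transcript levels, and how much of each protein the complex removed was not measured.

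Markers of cell cycle phase moved in the same direction. They share no gene with the 10 genes or the substrates, which reflects only how the lists were drawn and does not make them an independent set. Of 30 G2/M markers, 29 were tested and 28 were lower, with a median of -1.07, and their summed level was 1460 to 1467 FPKM in control and 818 to 827 FPKM after silencing. Of 33 S phase markers, 32 were tested and 13 were lower, with a median of -0.46 and a summed level of 691 to 704 FPKM in control and 505 to 518 FPKM after silencing. The share called lower over all genes tested was 7.45%. The part of the phase markers in the values of CDC20, UBE2C and the other genes was not tested.

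**Figure D3:**
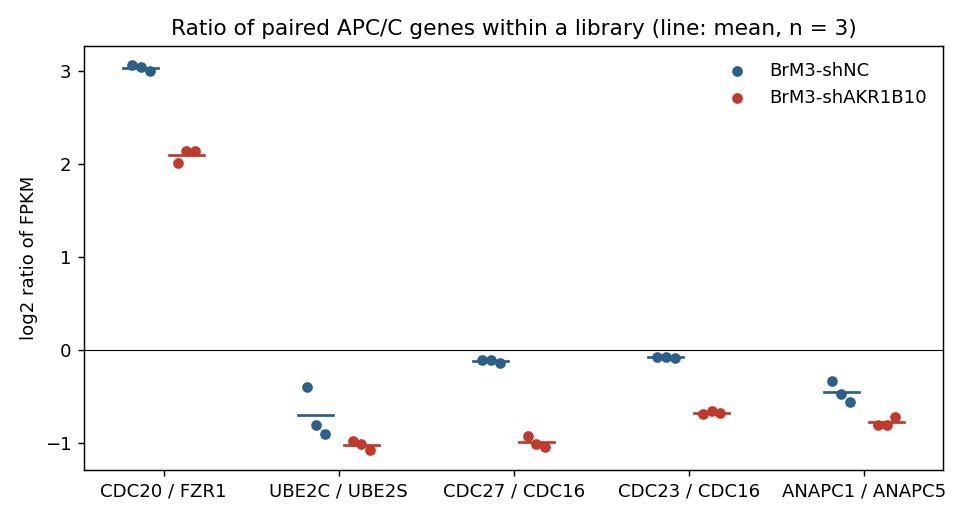
Log2 ratio of the FPKM of paired genes in each library, BrM3-shNC in blue and BrM3-shAKR1B10 in red, with the group mean as a line. The silenced libraries lie below the control libraries in all 5 pairs, with a difference in mean of -0.94 for CDC20 to FZR1, -0.87 for CDC27 to CDC16, -0.59 for CDC23 to CDC16, and -0.32 for both UBE2C to UBE2S and ANAPC1 to ANAPC5.

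Genes with a profile most like that of CDC20 were sought among all tested genes, by the root mean square difference of centred log2 values over the 6 libraries. The 5 nearest were MTOR (0.0329), AURKB (0.0375), MYBL2 (0.0512), GTSE1 (0.0526) and PLK1 (0.0556). UBE2C stood at rank 93 and CDC27 at rank 257. MTOR, the kinase of growth signalling, differed from the other 4 in its low level, with a mean of 8.17 FPKM in control and 3.53 FPKM after silencing. For FBXO5 the nearest were FAM120A (0.0124), POLA1 (0.0157), EPB41L2 (0.0171), NSD2 (0.0171) and CYTH1 (0.0172), of which POLA1 is the catalytic subunit of DNA polymerase alpha, and CDC23 stood at rank 26. The 6 libraries form 2 groups, so this measure mostly orders genes by their fold change.

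The upstream windows of the substrates and of the checkpoint genes can be set beside those shown for CDC20 and FBXO5. RefSeq windows were found for 25 of the 28 substrates (31 windows), of which 10 held TTTGAA, 24 held CCAAT and 9 held both. For the checkpoint genes, 6 had 7 windows, of which 3 held TTTGAA, 2 held CCAAT and 1 held both. The 8 other subunits had 19 windows, of which 2 held TTTGAA, 5 held CCAAT and 0 held both.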

How the data were processed

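Poly-A RNA of 6 libraries was sequenced. Per the paper's methods, the authors aligned reads with HISAT2 2.0.5 and counted them per gene with featureCounts 1.5.0-p3. The deposited table holds FPKM, with 1 column per library. The build is not given in the sources used here, but identifiers and positions of all 58735 genes matched GENCODE 29 (GRCh38). Groups came from the sample labels. FPKM multiplied by gene length and by a library size estimated from the values (16911164 to 18350584) gave whole reads for 100% of values above 0 (tolerance 0.05 reads). Median-of-ratios factors were equal in all libraries, so the deposited FPKM was already scaled between them.

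The study's own test was a count model, but the deposited unit is FPKM. Here limma 3.58.1 (R 4.3.3, eBayes with a trend, Benjamini-Hochberg) was run on log2(FPKM + 0.1) for the 13150 genes with a mean of at least 1 FPKM, a scale that understates changes of low genes. Calls used the study's thresholds. Gene ratios were compared by exact permutation. Alternatives covered the pseudocount, filter, scaling, test, block, biotype, threshold and each library left out. limma voom on recovered reads called 1038 genes lower and 789 higher, against 980 and 766.

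The members and lists were chosen with earlier results of these data known. Named were the 10 genes, AKR1B10, every called gene of the subunit, E2, checkpoint, regulator and substrate lists with UBE2S, ANAPC2, ANAPC11, MAD2L1, BUB1B and CCNB1, pseudogenes and overlapping genes, and the 5 genes most like CDC20 and FBXO5. Further genes of those lists, marker genes and 3 of the 5 ratios were added after their values were seen.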

Additional observations from a re-analysis of the deposited data

How the results depend on the processing

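CDC20, FBXO5, UBE2C, CDC23 and CDC27 were together called lower in 17 of 18 alternatives, and 0 of the 10 genes was called higher in any. With an absolute log2 fold change above 1, 2 of the 10 (CDC20 and UBE2C), 0 other subunits, 0 other E2 enzymes and 17 substrates were lower, and 205 genes were lower and 168 higher in all. With a pseudocount of 1, 0 other subunits and 3 rather than 4 regulators were lower, BTRC being lost, and over all genes 708 were lower and 497 higher, and the cause was not tested. Leaving out 1 library gave 0 to 1 other subunits. Requiring a mean of at least 5 FPKM left 7355 genes, of which 532 were lower and 290 higher, since fewer genes were tested, and ANAPC4 and BTRC were not among them. With quantile normalization 25 rather than 26 substrates were lower, GMNN being lost.

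The 3 genes near no difference changed sign without passing the threshold: ANAPC4 was at 0.0047 as TPM and at -0.11 to 0.040 with 1 library left out, ANAPC5 at -0.0086 to 0.017, and CDC16 at -0.0026 to 0.038. FZR1 was never called, with adjusted p from 0.0026 to 0.0696. It passed 0.05 without a filter on low values (0.0521) and as TPM (0.0677), so 6 rather than 7 genes were lower by adjusted p alone there. As TPM, 873 genes were lower and 902 higher. With the replicate number as a replicate block, 5 of the 10 genes were lower, and 967 genes were lower and 719 higher in all. Deviations of same-numbered libraries had correlations of -0.016, 0.0039 and 0.0038, so the numbers do not pair them, and the block changed no call among the 10. Depth limited the precision of FBXO5, whose spread between libraries was below its counting error, and 3 libraries a group limited the exact permutation tests of the ratios to p = 0.10.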
